A study of Homo sapiens with 9 samples.

Results

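The amino acid response genes and cytosolic tRNA synthetases were followed across 9 arrays of Huh7 cells, a human hepatocarcinoma line. They were taken as 43 listed genes, each read by the probe set annotated to it alone with the highest mean signal. Of these, 42 were measured among 19775 genes in all; the methionyl-tRNA synthetase MARS1 had no probe set of its own and was left out. They comprise 10 stress factors, 3 secreted hormones, 6 genes of serine, glycine and folate metabolism, 5 of asparagine, proline and cysteine synthesis, 6 amino acid transporters and 12 measured tRNA synthetases of 13 listed.

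Cells received siRNA against DEGS1 (3 arrays), an siRNA treatment labelled SPTLC123 and aimed at the SPTLC1, SPTLC2 and SPTLC3 subunits of serine palmitoyltransferase (3 arrays), or the control oligo scramble #1 (3 arrays). Serine palmitoyltransferase joins serine to a fatty acyl-CoA as the first step of sphingolipid synthesis, and DEGS1 makes the double bond of ceramide at the last step. All 3 groups had the same lipid reagent, 20 nM siRNA and, per the treatment protocol, a final 24 h in medium with 1% serum. Sample labels give the time as 72 h after transfection, but that protocol starts the low-serum medium only at 72 h, and which holds is not known. The arrays are labelled biological replicates of a single cell line and a single control oligo, and the labels do not say whether they came from separate cultures, so p-values measure the spread between these samples only.

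When an amino acid runs short, uncharged tRNA activates the kinase GCN2, which phosphorylates the translation factor eIF2. Stress of the endoplasmic reticulum reaches the same factor through the kinase PERK. General translation then slows while the mRNA of ATF4 is translated more, and ATF4 with its partner factors raises genes that make amino acids, import them and load them onto tRNA. Because ATF4 is controlled largely at translation, its mRNA is not a direct measure of its activity.

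Values below are log2 of the normalized probe-set intensity, a scale on which 1 unit is a doubling. Levels of different genes are not compared, because each probe set binds with its own strength. Levels are given as mean ± SD over 3 arrays and changes as differences of log2 means ± SE from a limma fit to all 9 arrays. A gene was called, and is said to have risen or fallen, at a Benjamini-Hochberg adjusted p under 0.05 over all 19775 genes. Both knockdowns were compared with the same 3 scramble arrays, so their changes against scramble share any peculiarity of those arrays. In RNA from a bulk culture, fewer cells that express a gene and less RNA per cell cannot be told apart.

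The targeted genes checked the labels: DEGS1 signal was 7.55% of the scramble level under DEGS1 siRNA, and SPTLC1 and SPTLC2 were 20.7% and 48.4% of it under SPTLC123 siRNA. SPTLC3 was not among the measured genes, so its knockdown was not checked. DEGS1 replicates 2 and 3 and SPTLC123 replicate 3 had weak signal at the 5′ end of control transcripts, with an actin 3′ minus 5′ difference of 1.15 to 1.31 on the log2 scale, against 0.40 to 0.56 in the other 6 arrays. All 3 weak arrays lie in the knockdown groups. The summed intensity of 8 hepatocyte markers was 87570 to 93170 under DEGS1 siRNA, 76280 to 81920 under SPTLC123 siRNA and 94220 to 99490 under scramble siRNA. For 7 markers of other cell types it was 464.4 to 551.6, 522.4 to 606.5 and 580.4 to 600.3 in the same order. The leukocyte gene PTPRC was below the median of all probe sets in every group. COL1A1 (group means of 7.42 to 7.66), PECAM1, KRT7 and ACTA2 were above that median in every group, and COL1A2 and VWF in some groups. The hepatocyte sums did not overlap between the groups, and the part of these markers in the results was not tested.

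With DEGS1 siRNA, 12 of the 42 measured genes fell and 0 rose. Across all genes of that comparison 9.7% were called, 5.04% lower and 4.66% higher. The 12 were the serine pathway genes PHGDH, PSAT1, PSPH and MTHFD2, the asparagine and cysteine enzymes ASNS and CTH, the transporters SLC7A1, SLC1A4, SLC7A5 and SLC6A9, and the synthetases SARS1 and YARS1. The median change over the 42 genes was -0.38, against -0.01 over all genes. At an unadjusted p under 0.05, 24 of the 42 were lower and 1 was higher. Of all 19775 genes, 2560 (12.9%) were lower and 2317 higher at that threshold.

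With SPTLC123 siRNA, 5 of the 42 fell and 0 rose, beside 9.94% of all genes called, 4.63% lower and 5.31% higher. They were ASNS, PHGDH, STC2, SLC6A9 and CARS1, and this share of calls, 11.9%, lies near that of all genes. The median change over the 42 was -0.31, against -0.03 over all genes, and 20 were lower and 4 higher at an unadjusted p under 0.05. Of all 19775 genes, 2306 (11.7%) were lower and 2218 higher at that threshold.

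Set directly against each other, DEGS1 siRNA gave lower levels than SPTLC123 siRNA for MTHFD2, SLC7A5, SLC7A1 and GDF15. These were 4 of 42, all lower, where 8.66% of all genes were called, 4.96% lower and 3.7% higher. Here 7 of the 42 were lower and 0 higher at an unadjusted p under 0.05, and the median was -0.12 against 0.01 over all genes. Of all 19775 genes, 2353 (11.9%) were lower and 2127 higher at that threshold. The share of calls, 9.52%, again lies near that of all genes.

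Without the 3 arrays of weak 5′ signal, which leaves 1 DEGS1 array whose spread is taken from the other groups, 3 of the 42 fell in DEGS1 against scramble, where 1.31% of all genes were called. MTHFD2 changed by -1.44 (adjusted p = 0.0373), SLC7A5 by -0.95 (adjusted p = 0.0202) and SLC7A1 by -1.14 (adjusted p = 0.0368). The other 9 kept a negative sign, with log2 changes of -1.81 to -0.40 and adjusted p of 0.183 to 0.466. The median over the 42 genes was -0.42 in that fit. With SPTLC123 siRNA, 2 genes were called without those arrays, SLC6A9 (-0.47, adjusted p = 0.0273) and the glutamine transporter SLC38A2 (-0.52, adjusted p = 0.0322), where 7.6% of all genes were called. Between the knockdowns 1 was called, SLC7A5 (-1.12, adjusted p = 0.0108), where 1.42% of all genes were. MTHFD2 (-1.10, adjusted p = 0.0981), GDF15 (-1.47, adjusted p = 0.112) and SLC7A1 (-0.54, adjusted p = 0.307) were not called between the knockdowns in that fit.

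**Figure D1:**
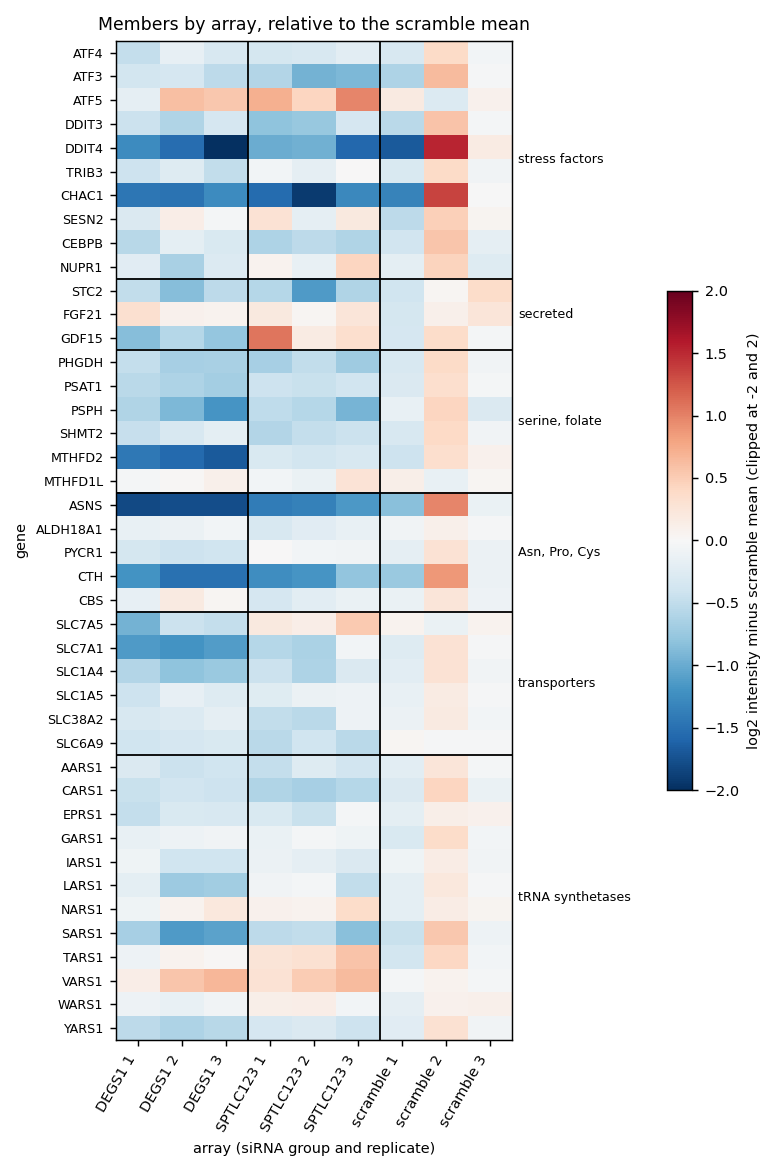
Log2 intensity of the 42 measured genes in each of the 9 arrays minus the gene's scramble mean, with genes as rows by role, arrays as columns by siRNA group and colour clipped at -2 and 2. Scramble replicate 2 is red and scramble replicate 1 blue for most genes, while the DEGS1 and SPTLC123 columns look alike within each group; MTHFD2, ASNS, CTH and SLC7A1 are deep blue in all 3 DEGS1 arrays.

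Groups separated completely, with every array of one below every array of the other, for 21 of the 42 genes downward and 1 upward in DEGS1 against scramble, where 26.3% of all genes did, 13.7% downward and 12.6% upward. In SPTLC123 against scramble 16 separated downward and 3 upward (28.9% of all genes, 15.4% downward and 13.5% upward). In DEGS1 against SPTLC123 12 separated downward and 3 upward (25.5% of all genes, 12.4% downward and 13.1% upward).

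The scramble arrays differed from one another more than the knockdown arrays did for most of these genes. Their SD was the largest of the 3 groups for 31 of the 42 (73.8%, against 31.1% of all genes). Among the 6 transporters it was the largest for 2, with a median SD of 0.15, against 0.19 under SPTLC123 siRNA. The median SD over the 42 genes was 0.12 under DEGS1 siRNA, 0.16 under SPTLC123 siRNA and 0.33 under scramble siRNA, whereas over all genes it was 0.13, 0.12 and 0.12. Scramble replicate 2 was the highest of the scramble arrays for 35 of the 42 genes (83.3%, against 37.9% of all genes), and scramble replicate 1 was the lowest for 36 (85.7%, against 33.7%). Replicate 2 was the highest of all 9 arrays for 31 (73.8%, against 16.4%).

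The gap between scramble replicates 2 and 1 had a median of 0.56 over the 42 genes and was at least 1 for 6 of them. It was 3.21 for DDIT4, 2.69 for CHAC1, 1.80 for ASNS, 1.61 for CTH, 1.24 for ATF3 and 1.10 for DDIT3. Neither scramble replicate 1 nor 2 had the weak 5′ signal, since their actin differences were 0.52 and 0.56. The origin of the gap was not tested.

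**Figure D2:**
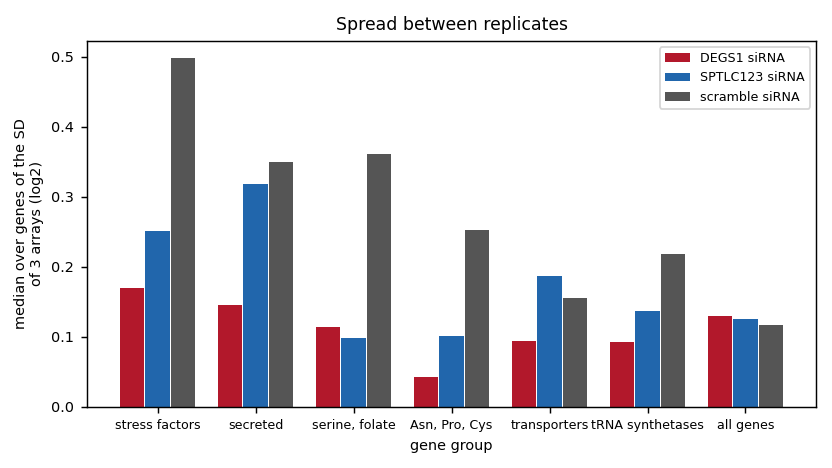
Bars give the median over genes of the SD of 3 arrays (log2) for each role and for all genes, by siRNA group. Scramble bars reach 0.50 for stress factors and 0.36 for serine and folate genes, against 0.12 over all genes, and DEGS1 bars stay at or below 0.17.

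Array by array, the median over the 42 genes relative to the scramble mean was -0.42, -0.39 and -0.40 in the DEGS1 arrays, -0.33, -0.30 and -0.25 in the SPTLC123 arrays, and -0.28, 0.32 and -0.04 in scramble replicates 1, 2 and 3. By this measure all 3 DEGS1 arrays and SPTLC123 replicates 1 and 2 were below every scramble array, with scramble replicate 1 close to the SPTLC123 arrays. All genes gave medians between -0.03 and 0.01 in the 9 arrays.

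**Figure D3:**
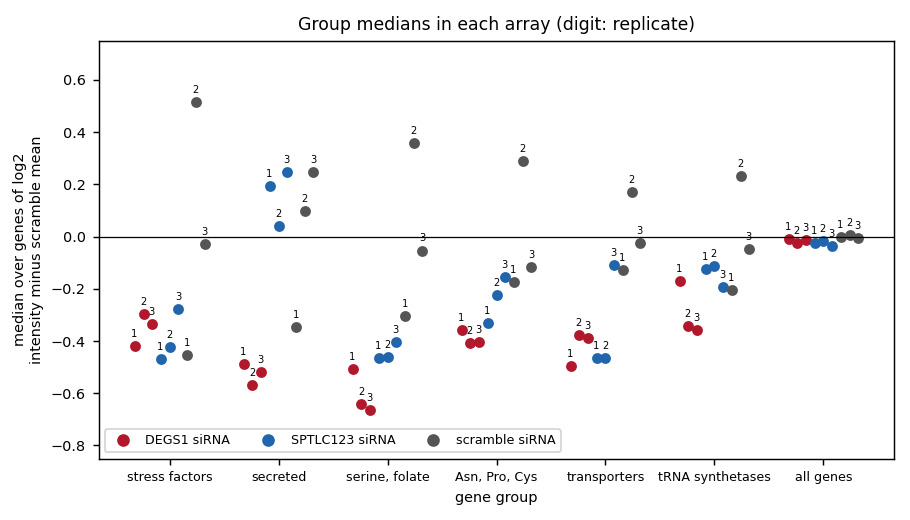
Points give, for each array, the median over the genes of a role of log2 intensity minus the scramble mean, with digits for replicates and all genes at the right end. Serine and folate genes sit at -0.51 to -0.66 in DEGS1 arrays and -0.40 to -0.46 in SPTLC123 arrays, while scramble arrays span -0.30 to 0.36; all genes stay near 0.

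None of the 10 stress factors was called in any of the 3 comparisons by limma. At an unadjusted p under 0.05, 3 were lower with DEGS1 siRNA than with scramble. With SPTLC123 siRNA 4 were lower and 1 higher than with scramble, and 1 was lower with DEGS1 than with SPTLC123 siRNA. Of all genes, 12.9%, 11.7% and 11.9% were lower at that threshold in these comparisons, and 2317, 2218 and 2127 of 19775 were higher. The median change of the stress factors was -0.38 with DEGS1 siRNA and -0.44 with SPTLC123 siRNA. Scramble replicate 2 was the highest of all arrays for 9 of the 10.

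ATF4, the transcription factor at the centre of the response, measured 11.83, 12.14 and 11.98 under DEGS1 siRNA, 11.96, 11.99 and 12.09 under SPTLC123 siRNA, and 11.99, 12.68 and 12.25 under scramble siRNA. The groups overlapped, and the scramble arrays held the widest range. The difference was -0.33 ± 0.16 with DEGS1 siRNA (adjusted p = 0.229) and -0.29 ± 0.16 with SPTLC123 siRNA (adjusted p = 0.297), neither called. DEGS1 minus SPTLC123 was -0.03, with a 95% interval of -0.37 to 0.31.

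CHAC1, which degrades glutathione and is raised strongly by ATF4, measured 6.66, 6.63 and 6.86 under DEGS1 siRNA, 6.57, 6.20 and 6.82 under SPTLC123 siRNA, and 6.77, 9.47 and 8.10 under scramble siRNA. Scramble replicate 1 fell among the knockdown arrays, while the other scramble arrays stood far above them. The differences, -1.40 ± 0.49 with DEGS1 siRNA (adjusted p = 0.1) and -1.58 ± 0.49 with SPTLC123 siRNA (adjusted p = 0.0666), were not called. Without scramble replicate 1 they were -2.07 (adjusted p = 0.0055) and -2.25 (adjusted p = 0.00283), and without scramble replicate 2 they were -0.72 (adjusted p = 0.228) and -0.91 (adjusted p = 0.137).

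DDIT4, an inhibitor of mTORC1 signalling, varied most within the scramble group. Its levels were 8.28, 8.02 and 7.37 under DEGS1 siRNA, 8.55, 8.58 and 7.96 under SPTLC123 siRNA, and 7.85, 11.06 and 9.70 under scramble siRNA. Replicate 1 of scramble was below 2 of the DEGS1 arrays and all SPTLC123 arrays. The change was -1.65 ± 0.60 with DEGS1 siRNA (adjusted p = 0.114) and -1.17 ± 0.60 with SPTLC123 siRNA (adjusted p = 0.278). Left without scramble replicate 1, both comparisons were called, at -2.49 (adjusted p = 0.00494) and -2.02 (adjusted p = 0.0109). Without scramble replicate 2 the DDIT4 differences were -0.88 (adjusted p = 0.31) and -0.41 (adjusted p = 0.702).

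The other stress factors gave smaller differences. ATF3, a stress-induced repressor and partner of ATF4, differed by -0.40 with DEGS1 siRNA and by -0.81 ± 0.24 with SPTLC123 siRNA (adjusted p = 0.0585). DDIT3, the pro-apoptotic factor CHOP, gave -0.45 and -0.63, and CEBPB, a liver bZIP factor, gave -0.35 and -0.58 in the same order. The pseudokinase TRIB3, which restrains ATF4, gave -0.39 and -0.07, the mTORC1 inhibitor SESN2 -0.07 and 0.10, and NUPR1, a small chromatin-associated stress protein, -0.38 and 0.12. None of these was called.

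ATF5, a bZIP factor translated like ATF4 and active in the mitochondrial stress response, ran the other way. It measured 6.80, 7.58 and 7.50 under DEGS1 siRNA, 7.68, 7.40 and 7.96 under SPTLC123 siRNA, and 7.16, 6.70 and 7.06 under scramble siRNA. All SPTLC123 arrays were above all scramble arrays, and the DEGS1 arrays overlapped with scramble. The differences of 0.71 ± 0.21 with SPTLC123 siRNA (adjusted p = 0.0593) and 0.32 ± 0.21 with DEGS1 siRNA (adjusted p = 0.393) were not called. Dimmer ATF5 probe sets gave 0.53, -0.05 and -0.26 with SPTLC123 siRNA (adjusted p = 0.0538, 0.904 and 0.2), so the sign was not shared. With DEGS1 siRNA they gave 0.07, 0.00 and 0.10. Without the weak 5′ arrays the DEGS1 difference in ATF5 was -0.17 (adjusted p = 0.809), of the opposite sign.

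Among the secreted factors, GDF15, a hormone that lowers food intake through a hindbrain receptor, separated the knockdowns. It measured 8.08, 8.37 and 8.17 under DEGS1 siRNA, 10.00, 9.10 and 9.28 under SPTLC123 siRNA, and 8.60, 9.30 and 8.90 under scramble siRNA. Every DEGS1 array was below every SPTLC123 array and every scramble array. DEGS1 minus SPTLC123 was -1.25 ± 0.22 (adjusted p = 0.00602), which is 41.9% of the SPTLC123 level. Against scramble the differences were -0.73 ± 0.22 with DEGS1 siRNA (adjusted p = 0.0663) and 0.52 ± 0.22 with SPTLC123 siRNA (adjusted p = 0.187), of opposite sign and not called. Its other probe sets were below the all-probe-set median, and the mean of its probe sets gave -0.47 between the knockdowns (adjusted p = 0.0444). Without the weak 5′ arrays GDF15 lost this call.

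STC2, a secreted glycoprotein induced by endoplasmic reticulum stress, measured 5.04, 4.68 and 5.01 under DEGS1 siRNA, 4.95, 4.39 and 4.93 under SPTLC123 siRNA, and 5.12, 5.56 and 5.89 under scramble siRNA. Both knockdowns lay below all scramble arrays, by -0.77 ± 0.20 with SPTLC123 siRNA (adjusted p = 0.0343, 58.6% of scramble), which was called, and by -0.62 ± 0.20 with DEGS1 siRNA (adjusted p = 0.081), which was not. The SPTLC123 mean was below the median of all probe sets, 4.86, where a fold change is compressed. FGF21, the liver hormone of fasting and protein restriction, measured 5.28, 5.05 and 5.03 under DEGS1 siRNA, 5.16, 5.00 and 5.21 under SPTLC123 siRNA, and 4.62, 5.06 and 5.21 under scramble siRNA. These groups overlapped, and both differences were 0.16 ± 0.15 with adjusted p of 0.565 and 0.577. The FGF21 group means, 4.96 to 5.12, were also near the median of all probe sets.

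Serine synthesis from glucose runs through PHGDH, PSAT1 and PSPH, and all 3 fell with DEGS1 siRNA. Serine is also a substrate of serine palmitoyltransferase. PHGDH, the first enzyme, measured 10.71, 10.53 and 10.54 under DEGS1 siRNA, 10.52, 10.69 and 10.47 under SPTLC123 siRNA, and 10.87, 11.57 and 11.12 under scramble siRNA. Both knockdowns lay below every scramble array and overlapped with each other. The fall was -0.59 ± 0.16 with DEGS1 siRNA (adjusted p = 0.0361, 66.3% of scramble) and -0.63 ± 0.16 with SPTLC123 siRNA (adjusted p = 0.0269, 64.8%), and the difference between the knockdowns was 0.03.

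PSAT1, the aminotransferase of the second step, measured 11.93, 11.84 and 11.79 under DEGS1 siRNA, 12.05, 12.03 and 12.09 under SPTLC123 siRNA, and 12.18, 12.80 and 12.43 under scramble siRNA. The groups did not overlap, with DEGS1 lowest and scramble highest. DEGS1 siRNA gave -0.62 ± 0.14 (adjusted p = 0.0172, 65.3% of scramble), and the SPTLC123 difference of -0.41 ± 0.14 was not called (adjusted p = 0.0847). PSPH, the phosphatase of the last step, measured 11.16, 10.85 and 10.58 under DEGS1 siRNA, 11.24, 11.19 and 10.82 under SPTLC123 siRNA, and 11.61, 12.19 and 11.47 under scramble siRNA. Both knockdowns were below every scramble array and overlapped with each other. It fell by 0.90 with DEGS1 siRNA (SE 0.20, adjusted p = 0.018, 53.8% of scramble), and its SPTLC123 difference of -0.67 was not called (adjusted p = 0.0575).

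MTHFD2, the mitochondrial dehydrogenase that oxidises serine-derived one-carbon units, had the smallest adjusted p of the 42 genes in the DEGS1 comparison. It measured 10.35, 10.24 and 10.11 under DEGS1 siRNA, 11.49, 11.42 and 11.47 under SPTLC123 siRNA, and 11.37, 12.13 and 11.87 under scramble siRNA. The DEGS1 arrays lay more than 1 log2 unit below every other array, whereas the SPTLC123 arrays overlapped with scramble. DEGS1 siRNA gave -1.56 ± 0.16 against scramble (adjusted p = 0.000262, 34.0% of it) and -1.23 ± 0.16 against SPTLC123 (adjusted p = 0.000912, 42.7% of it). With SPTLC123 siRNA the difference from scramble was -0.33 ± 0.16 (adjusted p = 0.249).

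A second MTHFD2 probe set gave -1.88 (adjusted p = 0.0148) and -1.73 (adjusted p = 0.0197) for the same DEGS1 comparisons, adjusted over all probe sets. SHMT2, the mitochondrial enzyme that splits serine into glycine and a one-carbon unit, was not called, at -0.32 with DEGS1 siRNA (adjusted p = 0.244) and -0.50 ± 0.16 with SPTLC123 siRNA (adjusted p = 0.075). MTHFD1L, the mitochondrial formate-producing synthetase, was below the all-probe-set median in every group, with means of 3.57, 3.56 and 3.54 under DEGS1, SPTLC123 and scramble siRNA.

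**Figure D4:**
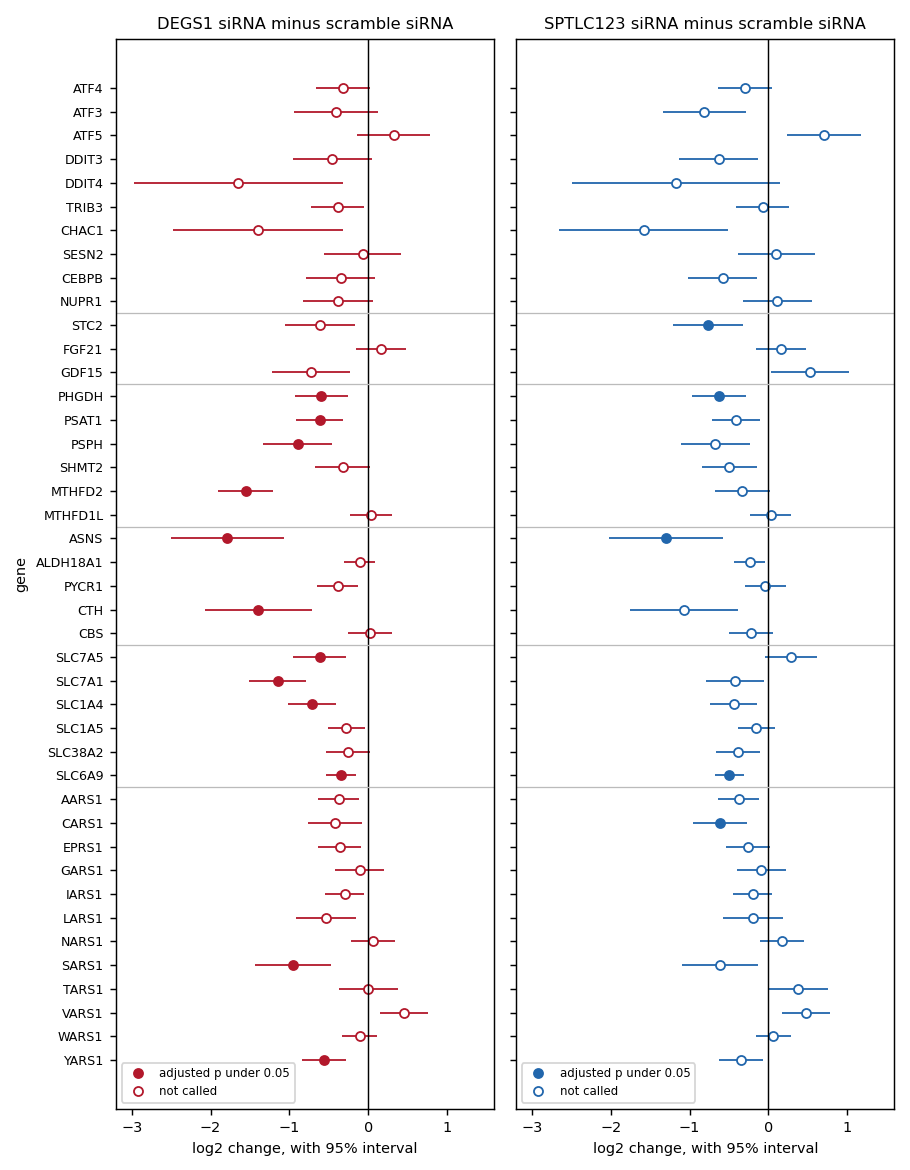
Log2 change of each of the 42 genes against scramble with its 95% interval, for DEGS1 siRNA on the left and SPTLC123 siRNA on the right; filled points were called at an adjusted p under 0.05. There are 12 filled points on the left and 5 on the right, all below 0, and the wide intervals of DDIT4 and CHAC1 belong to open points.

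ASNS, which makes asparagine from aspartate and glutamine, fell with both knockdowns and had the largest DEGS1 change of the 42 genes. It measured 9.69, 9.71 and 9.72 under DEGS1 siRNA, 10.10, 10.13 and 10.35 under SPTLC123 siRNA, and 10.66, 12.46 and 11.36 under scramble siRNA. The 3 groups did not overlap, and the DEGS1 arrays spanned a far narrower range than the scramble arrays. The change was -1.79 ± 0.33 with DEGS1 siRNA (adjusted p = 0.00714, 29.0% of scramble) and -1.30 ± 0.33 with SPTLC123 siRNA (adjusted p = 0.0298, 40.7% of scramble).

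The direct difference in ASNS, DEGS1 minus SPTLC123, was -0.49 ± 0.33 with a 95% interval of -1.21 to 0.23 (adjusted p = 0.42), so it was not called although the arrays separated. Without scramble replicate 2 the changes against scramble were -1.30 (adjusted p = 0.00343) and -0.81 (adjusted p = 0.0243), both called. Without scramble replicate 3 the SPTLC123 change of -1.36 was not (adjusted p = 0.0686). A second ASNS probe set, much dimmer, was below the all-probe-set median.

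CTH, the enzyme that releases cysteine from cystathionine, measured 7.85, 7.56 and 7.56 under DEGS1 siRNA, 7.80, 7.88 and 8.26 under SPTLC123 siRNA, and 8.30, 9.91 and 8.93 under scramble siRNA. Both knockdowns were below all scramble arrays and overlapped with each other. It fell by 1.39 with DEGS1 siRNA (SE 0.31, adjusted p = 0.0179, 38.0% of scramble), and the SPTLC123 difference of -1.07 ± 0.31 was not called (adjusted p = 0.0525). PYCR1, of proline synthesis, gave -0.39 with DEGS1 siRNA (adjusted p = 0.0623) and -0.04 with SPTLC123 siRNA. ALDH18A1, which makes the proline precursor, gave -0.11 and -0.24, and CBS, which makes cystathionine, gave 0.02 and -0.22, none called.

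ATF4 and its partners bind a composite element known from ASNS, CHAC1 and other genes of the response. The letters TGATGNAA, its usual core, were searched on both strands in RefSeq windows of 300 bases (GRCh38.p14), from 250 bases before to 50 after each gene's start. Of the 42 measured genes 35 had a window, and 14 of these held a match (40.0%). The share was 4.46% among 27305 genes with a window, and 3.62% of 35116 windows held one. NUPR1, PSPH, SHMT2, PYCR1, LARS1, VARS1 and YARS1 had no window. The bases before one ASNS start are shown because ASNS had the largest change, with the match in capitals and read on the gene's strand, chr7:97872409-97872658, minus strand.
ASNS: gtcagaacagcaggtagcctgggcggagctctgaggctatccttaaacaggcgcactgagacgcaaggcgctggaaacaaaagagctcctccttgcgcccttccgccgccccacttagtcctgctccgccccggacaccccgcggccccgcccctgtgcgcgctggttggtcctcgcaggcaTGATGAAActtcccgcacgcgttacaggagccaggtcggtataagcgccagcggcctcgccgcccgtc

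The match in ASNS begins 68 bases before that start. Matches were found in ATF3 and CHAC1 of the 9 stress factors with a window, in FGF21 of the 3 secreted factors, in MTHFD1L of 4 serine and folate genes, in ASNS of 4 in its group, in SLC7A1, SLC1A4 and SLC1A5 of the 6 transporters, and in AARS1, CARS1, GARS1, IARS1, NARS1 and TARS1 of 9 synthetases. Of the 15 genes called in any comparison, 13 had a window and 4 held a match. MTHFD2, GDF15, PHGDH, PSAT1 and CTH, all called, had no match in their windows. A match is a run of letters and not a measured binding site, and a window without one says only that these letters are not in it.

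The 4 called genes with a match are set beside 4 uncalled ones, 30 bases each, on the strand that reads TGATGNAA, with the match in capitals. Minus-strand stretches are ASNS at chr7:97872458-97872487, SLC7A1 at chr13:29595663-29595692, SLC1A4 at chr2:64989381-64989410, CHAC1 at chr15:40953251-40953280 and TARS1 at chr5:33440956-33440985. Plus-strand stretches are CARS1 at chr11:3057407-3057436, AARS1 at chr16:70289675-70289704 and IARS1 at chr9:92293692-92293721. Among the stretches shown, ASNS and SLC7A1 carry A at the free position of the motif, and the other 6 carry C. Of the uncalled genes with a match that are not shown, GARS1 also carries A and ATF3 carries G. FGF21, MTHFD1L, SLC1A5 and NARS1 carry C.
ASNS: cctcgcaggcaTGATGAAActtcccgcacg
SLC7A1: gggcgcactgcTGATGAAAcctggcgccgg
SLC1A4: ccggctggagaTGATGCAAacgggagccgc
CARS1: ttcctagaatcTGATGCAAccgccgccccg
CHAC1: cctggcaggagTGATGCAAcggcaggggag
AARS1: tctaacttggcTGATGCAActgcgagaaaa
IARS1: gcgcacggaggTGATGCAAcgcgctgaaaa
TARS1: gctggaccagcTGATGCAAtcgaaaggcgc

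All 6 amino acid transporters had every DEGS1 array below every scramble array, beside 13.7% of all genes. Of the 6, 4 fell, beside 5.04% of all genes called lower. SLC7A1, the carrier of arginine and lysine, measured 8.21, 8.15 and 8.24 under DEGS1 siRNA, 8.78, 8.72 and 9.29 under SPTLC123 siRNA, and 9.09, 9.64 and 9.32 under scramble siRNA. The DEGS1 arrays were below all others, and SPTLC123 replicate 3 reached into the scramble range. DEGS1 siRNA gave -1.15 ± 0.17 against scramble (adjusted p = 0.00189, 45.0% of it) and -0.73 ± 0.17 against SPTLC123 (adjusted p = 0.0201, 60.4% of it), while SPTLC123 minus scramble was -0.42 ± 0.17 (adjusted p = 0.146). The SLC7A1 difference between knockdowns was not called without DEGS1 replicate 2 (-0.70, adjusted p = 0.0792) or without replicate 3 (-0.75, adjusted p = 0.0621).

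SLC7A5, the light chain of the leucine exchanger LAT1, measured 9.97, 10.50 and 10.45 under DEGS1 siRNA, 11.13, 11.06 and 11.45 under SPTLC123 siRNA, and 10.99, 10.79 and 10.99 under scramble siRNA. DEGS1 arrays were below scramble and SPTLC123 arrays above it, with no overlap among the 3 groups. Its change was -0.62 ± 0.15 with DEGS1 siRNA (adjusted p = 0.0276, 65.2% of scramble), and its SPTLC123 difference of 0.29 ± 0.15 was not called (adjusted p = 0.291). DEGS1 minus SPTLC123 was -0.91 ± 0.15 (adjusted p = 0.00408, 53.3% of SPTLC123).

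SLC1A4, a carrier of alanine, serine and cysteine, measured 8.30, 8.07 and 8.14 under DEGS1 siRNA, 8.45, 8.27 and 8.60 under SPTLC123 siRNA, and 8.67, 9.17 and 8.81 under scramble siRNA. It fell by 0.71 with DEGS1 siRNA (SE 0.14, adjusted p = 0.00896, 61.1% of scramble), while the SPTLC123 difference of -0.44 was not called (adjusted p = 0.0681). Both knockdowns lay below every scramble array.

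The glycine transporter SLC6A9 measured 3.90, 3.98 and 4.0 under DEGS1 siRNA, 3.76, 3.92 and 3.76 under SPTLC123 siRNA, and 4.35, 4.28 and 4.29 under scramble siRNA. Its falls of -0.35 ± 0.09 with DEGS1 siRNA (adjusted p = 0.0287) and -0.49 ± 0.09 with SPTLC123 siRNA (adjusted p = 0.0044) came from a probe set below the median of all probe sets in every array, so the level itself may be background. SLC1A5, a glutamine carrier, gave -0.28 and -0.15, and SLC38A2, another one, gave -0.26 and -0.38 with DEGS1 and SPTLC123 siRNA, none called. The other SLC38A2 probe sets were lower with DEGS1 siRNA, by -0.54 and -0.52 (adjusted p = 0.0489 and 0.0444 over all probe sets). With SPTLC123 siRNA they gave -0.44 and -0.43 (adjusted p = 0.0946 and 0.0798).

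**Figure D5:**
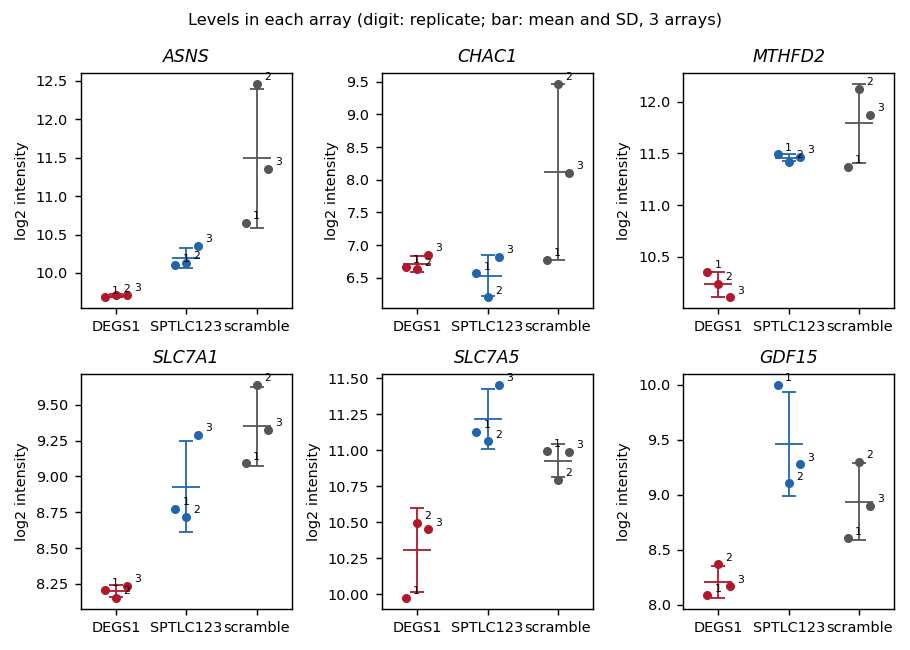
Log2 intensity of ASNS, CHAC1, MTHFD2, SLC7A1, SLC7A5 and GDF15 in each array, with digits for replicates and a bar for the mean and SD of 3 arrays. MTHFD2, SLC7A1, SLC7A5 and GDF15 are lower in all DEGS1 arrays than in all SPTLC123 arrays, and the scramble points of CHAC1 span 6.77 to 9.47. Axes differ between panels and do not start at 0.

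The tRNA synthetases, which load each amino acid onto its tRNA, had few calls. With DEGS1 siRNA 2 of 12 fell (16.7%), beside 9.7% of all genes called and 5.04% called lower. With SPTLC123 siRNA 1 of 12 fell (8.33%), beside 9.94% of all genes called and 4.63% called lower. In either comparison 0 rose. There were 7 lower and 1 higher with DEGS1 siRNA, and 4 lower and 2 higher with SPTLC123 siRNA, at an unadjusted p under 0.05. Of all genes, 12.9% and 11.7% were lower at that threshold, and 2317 and 2218 of 19775 were higher. The median change over the 12 was -0.33 with DEGS1 siRNA and -0.20 with SPTLC123 siRNA. No synthetase was called between the knockdowns by limma. There 1 was lower and 0 higher at an unadjusted p under 0.05, beside 11.9% of all genes lower and 2127 of 19775 higher. Relative to the scramble mean, the median over the 12 was -0.17 in DEGS1 replicate 1 and -0.34 and -0.36 in the weak 5′ replicates 2 and 3, and without the weak arrays 0 of the 12 were called against scramble in either knockdown.

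SARS1, which loads serine, measured 9.47, 9.00 and 9.06 under DEGS1 siRNA, 9.61, 9.65 and 9.30 under SPTLC123 siRNA, and 9.69, 10.68 and 10.04 under scramble siRNA. Every knockdown array was below every scramble array. It fell by 0.96 with DEGS1 siRNA (SE 0.22, adjusted p = 0.0203, 51.5% of scramble) and differed by -0.62 ± 0.22 with SPTLC123 siRNA (adjusted p = 0.11). DEGS1 replicate 1, the DEGS1 array without weak 5′ signal, was the highest of its group. A dimmer SARS1 probe set gave -0.12 with DEGS1 siRNA (adjusted p = 0.899), and the mean of its probe sets gave -0.54, not called (adjusted p = 0.259).

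YARS1, for tyrosine, measured 10.26, 10.16 and 10.22 under DEGS1 siRNA, 10.44, 10.48 and 10.36 under SPTLC123 siRNA, and 10.54, 11.08 and 10.70 under scramble siRNA. The 3 groups did not overlap. Its change was -0.56 ± 0.13 with DEGS1 siRNA (adjusted p = 0.0185, 67.7% of scramble) and -0.35 with SPTLC123 siRNA (adjusted p = 0.118). A dimmer YARS1 probe set gave 0.23 with DEGS1 siRNA (adjusted p = 0.619), and the mean of its probe sets gave -0.16 (adjusted p = 0.444).

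CARS1, for cysteine, was the synthetase that fell with SPTLC123 siRNA. It measured 9.63, 9.70 and 9.67 under DEGS1 siRNA, 9.48, 9.42 and 9.52 under SPTLC123 siRNA, and 9.79, 10.52 and 9.94 under scramble siRNA. Again the groups did not overlap, here with SPTLC123 lowest. The change was -0.61 ± 0.16 with SPTLC123 siRNA (adjusted p = 0.0307, 65.5% of scramble), -0.42 ± 0.16 with DEGS1 siRNA (adjusted p = 0.123), and 0.19 for DEGS1 minus SPTLC123, not called.

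VARS1, for valine, lay above scramble with no overlap in both knockdowns, by 0.45 ± 0.14 with DEGS1 siRNA (adjusted p = 0.0674) and 0.48 ± 0.14 with SPTLC123 siRNA (adjusted p = 0.056), neither called. It measured 8.76, 9.18 and 9.29 under DEGS1 siRNA, 8.91, 9.13 and 9.26 under SPTLC123 siRNA, and 8.58, 8.69 and 8.59 under scramble siRNA. Within both knockdowns the weak 5′ arrays gave the highest values. A dimmer VARS1 probe set gave -0.33 with DEGS1 siRNA (adjusted p = 0.59), of the opposite sign, and 0.14 with SPTLC123 siRNA (adjusted p = 0.881). AARS1 (alanine) gave -0.37 and -0.38, EPRS1 (glutamate and proline) -0.36 and -0.26, LARS1 (leucine) -0.54 and -0.20, and IARS1 (isoleucine) -0.30 and -0.20, with DEGS1 and SPTLC123 siRNA. GARS1 (glycine) gave -0.11 and -0.09, NARS1 (asparagine) 0.06 and 0.17, TARS1 (threonine) 0.00 and 0.38, and WARS1 (tryptophan) -0.11 and 0.06. None of these 8 was called in any comparison by the probe set used. Another EPRS1 probe set was lower with DEGS1 siRNA (-0.57, adjusted p = 0.0384 over all probe sets).

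Other genes of the pathway outside the 42 were read from lists chosen for their role. Of 19 measured further ATF4 pathway genes, 6 fell and 1 rose with DEGS1 siRNA, 2 fell and 1 rose with SPTLC123 siRNA, and 2 were lower and 1 higher with DEGS1 than with SPTLC123 siRNA. These calls are 36.8%, 15.8% and 15.8% of the 19, beside 9.7%, 9.94% and 8.66% of all genes. SLC3A2, the heavy chain that carries SLC7A5 to the membrane, measured 9.24, 9.11 and 9.12 under DEGS1 siRNA, 9.86, 9.74 and 9.85 under SPTLC123 siRNA, and 9.79, 9.91 and 9.95 under scramble siRNA. Like SLC7A5 it was lower in all DEGS1 arrays than in all others, at -0.73 ± 0.09 against scramble (adjusted p = 0.000818) and -0.66 ± 0.09 against SPTLC123 (adjusted p = 0.00115). XPOT, which exports tRNA from the nucleus, fell by 0.44 with DEGS1 siRNA (SE 0.11, adjusted p = 0.0257). SLC7A11, EIF4EBP1 and VLDLR changed by -1.25, -0.81 and -1.46 with DEGS1 siRNA, and JDP2 by -0.95 with SPTLC123 siRNA, all called. The VLDLR means of both knockdowns were below the median of all probe sets, and its scramble arrays measured 4.38, 6.46 and 5.46. SLC7A11 was also lower with DEGS1 than with SPTLC123 siRNA (-0.89). Neither SLC3A2 nor SLC7A11 kept its call between the knockdowns without the weak 5′ arrays, a fit that leaves 1 DEGS1 array. GRB10 rose in both knockdowns, by 0.66 and 0.75. ERO1A changed by -0.37 with DEGS1 siRNA and -1.17 with SPTLC123 siRNA (adjusted p = 0.0322 and 3.71e-05), and was higher with DEGS1 siRNA by 0.80. Without the weak 5′ arrays 0 of the 19 were called with DEGS1 siRNA and 3 with SPTLC123 siRNA, 2 lower and 1 higher, beside 1.31% and 7.6% of all genes.

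Of 16 genes for the eIF2 kinases, eIF2, its exchange factor eIF2B and its phosphatase, 4 fell and 0 rose with DEGS1 siRNA. These are 25% of the 16, beside 9.7% of all genes. At an unadjusted p under 0.05, 4 were lower and 3 higher, beside 12.9% of all genes lower and 2317 of 19775 higher. EIF2AK3, the gene of PERK, measured 8.18, 7.48 and 7.98 under DEGS1 siRNA, 8.16, 8.38 and 8.36 under SPTLC123 siRNA, and 8.56, 8.91 and 8.63 under scramble siRNA. It was lower in every DEGS1 and every SPTLC123 array than in any scramble array, at -0.82 ± 0.17 with DEGS1 siRNA (adjusted p = 0.0112) and -0.40 ± 0.17, not called, with SPTLC123 siRNA (adjusted p = 0.17). The eIF2 subunits EIF2S2 and EIF2S3 fell by 0.60 and 0.40 with DEGS1 siRNA (adjusted p = 0.0233 and 0.0364).

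NCK1, an adaptor that acts on eIF2 phosphatase, changed by -1.06 ± 0.29 (adjusted p = 0.0403), with DEGS1 levels of 8.0 in replicate 1 and of 6.61 and 6.97 in the weak 5′ replicates. None of the 16 was called with SPTLC123 siRNA by limma. At an unadjusted p under 0.05, 3 were lower and 0 higher there, beside 11.7% of all genes lower and 2218 of 19775 higher. EIF2AK4, the gene of GCN2, was higher with DEGS1 than with SPTLC123 siRNA by 0.53 ± 0.11 (adjusted p = 0.0106), and EIF2B3, an eIF2B subunit, was lower by 0.50 (SE 0.14, adjusted p = 0.0482). These calls between the knockdowns are 12.5% of the 16, beside 8.66% of all genes. Without the weak 5′ arrays 0 of the 16 were called in any of the 3 comparisons, beside 1.31%, 7.6% and 1.42% of all genes.

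Other probe sets of the called genes were few. For DEGS1 minus scramble, 16 further probe sets of 9 called genes were measured, of which 13 had the same sign, 4 were called in that direction and 0 in the opposite one. For SPTLC123 minus scramble 5 of 5 had the same sign and 0 were called, and for DEGS1 minus SPTLC123 7 of 7 had the same sign and 1 was called.

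Single control arrays decided how many of the 42 genes were called. Without scramble replicate 1, 16 fell with DEGS1 siRNA, adding ATF3, DDIT4, CHAC1, STC2, PYCR1 and AARS1 and losing SLC7A5 and SLC6A9, and 17 fell with SPTLC123 siRNA, including all 5 first called. In these fits 7.01% and 7.57% of all genes were called, 3.93% and 3.88% lower. Without scramble replicate 2, 9 fell with DEGS1 siRNA, with PHGDH, PSPH and SLC6A9 lost at adjusted p of 0.0547 to 0.0863, and 4 were called with SPTLC123 siRNA, 3 lower and TARS1 higher. In that fit STC2 and PHGDH lost their SPTLC123 calls (adjusted p of 0.0618 to 0.0997), and CARS1 changed by -0.39. Of all genes 5.76% and 6.7% were called there. Without scramble replicate 3, 6 fell with DEGS1 siRNA and 1 with SPTLC123 siRNA, beside 4.85% and 6.64% of all genes. The median change over the 42 genes was -0.51 and -0.45 for DEGS1 and SPTLC123 siRNA without replicate 1, and -0.21 and -0.19 without replicate 2.

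Knockdown arrays counted too. Without DEGS1 replicate 2, 5 genes fell with DEGS1 siRNA, and without DEGS1 replicate 3, 4 did: MTHFD2, ASNS, SLC7A1 and SLC1A4. Of all genes 4.25% and 4.05% were called in these fits. PHGDH lost its DEGS1 call without SPTLC123 replicate 1 or 2, which only set the spread (adjusted p = 0.0547 and 0.0502). Without SPTLC123 replicates 1, 2 and 3 in turn, 1, 2 and 3 genes were called with SPTLC123 siRNA, beside 5.96%, 7.49% and 6.69% of all genes, and without DEGS1 replicate 1 there were 9, beside 12.0%. MTHFD2 and SLC7A1 kept their DEGS1 calls against scramble in every alternative in which they were tested, SLC6A9 its SPTLC123 call, and SLC7A5 its call between the knockdowns.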

How the data were processed

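Total RNA from 9 samples of Huh7 cells, 3 per siRNA group, was labelled with biotin and read on 1-colour Affymetrix arrays of a single design. The authors deposited normalized intensity values, not log-transformed, for 54675 probe sets (62 controls among them). The submitters' processing notes name RMA, GCRMA 2.12.1 and limma 2.14.7 without saying which step each did, so it is not known whether RMA or GCRMA gave the values. They ran from 4.88 to 27330.6, and the array medians were 27.92 to 30. Precision is limited by the number of arrays, and for dim probe sets by background, which compresses fold changes.

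Log2 was taken without a pseudocount because all values were positive. The platform annotation assigned 41091 probe sets to a single gene (41037 matched RefSeq, with 0 symbol changes) and 1801 to several, and left 11721 unlisted. Each of 19775 genes was represented by its own probe set of highest mean over the 9 arrays. Array pairs correlated at 0.97 to 1.00, and 0 pairs were identical.

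Group means were estimated jointly from all 9 arrays in limma 3.58.1 (lmFit and eBayes, statmod 1.5.0 for the robust alternative) in R 4.3.3, leaving 6 residual degrees of freedom before moderation. Tests were two-sided with Benjamini-Hochberg adjustment over all genes within a comparison, called at an adjusted p under 0.05; p-values printed for other probe sets were adjusted over all single-gene probe sets. The fit was tested on simulated data. The comparisons were DEGS1 and SPTLC123 siRNA each against scramble siRNA, and DEGS1 against SPTLC123 siRNA. Full values are given for the genes called in any comparison and for ATF4, FGF21 and GDF15; CHAC1, DDIT4, ATF5, VARS1, SLC3A2 and EIF2AK3 were added after their values were seen. The genes, lists and alternatives were chosen with earlier results of these data known. No genome was used; promoter windows come from RefSeq (GRCh38.p14).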

Additional observations from a re-analysis of the deposited data

How the results depend on the processing

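For DEGS1 against scramble siRNA, where 12 of the 42 genes were called, the count was 19 with array weights (1 of them higher), 4 at an adjusted p under 0.01, 7 with the actin 3′ minus 5′ difference as a covariate and 3 without the 3 weak 5′ arrays, and ranged from 4 to 16 when single arrays were left out. Of all genes, 1.31% were called without the weak arrays and 21.6% with array weights. Fits on the groups compared alone, quantile normalization, median centring, the mean of probe sets, single probe sets, a dim-gene filter and robust eBayes gave 10 to 13.

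For SPTLC123 against scramble siRNA, where 5 were called, it was 3 with probe sets averaged per gene, 1 with every probe set tested, 9 with quantile normalization, 14 with array weights (2 of them higher), 1 at an adjusted p under 0.01, 11 with the actin covariate (2 of them higher) and 2 without the weak 5′ arrays, and ranged from 1 to 17 when single arrays were left out. For DEGS1 against SPTLC123 siRNA, where 4 were called, it was 1 without the weak 5′ arrays and ranged from 3 to 5 when single arrays were left out. The number of all genes called moved with the setting too. In SPTLC123 against scramble siRNA 1051 of all 19775 genes were higher and 915 lower in the main fit. With the actin covariate these were 1511 and 1239, and without the weak 5′ arrays 823 and 679. Over the 21 calls, 98 of 439 alternative values lost the call and 0 changed sign. The mean of probe sets gave an ASNS change of -0.90 with DEGS1 siRNA. Beyond the smaller number of arrays in some fits, the cause of these shifts was not tested.

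With the replicate number as a block the counts were 13, 9 and 4, and all first calls were kept. For DEGS1 against scramble siRNA 11% of all genes were called in that fit, 5.69% lower. The numbers were not taken as pairing the arrays: same-numbered arrays had correlated deviations of -0.28 to 0.54, with 3 of 9 pairs over 0.1, against -0.62 to 0.41 for other pairs, and 4 of 9 arrays correlated best with their own number. Signal limits SLC6A9, MTHFD1L, STC2, NUPR1 and FGF21, which lay near or below the median of all probe sets.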

Other observations

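Regulators and subunits of mTORC1, the growth kinase that responds to amino acids on the lysosome, were read from a list of 18 genes, all measured. With DEGS1 siRNA 3 rose and 1 fell, with SPTLC123 siRNA 3 rose and 2 fell, and 2 were higher and 0 lower with DEGS1 than with SPTLC123 siRNA, beside the shares of all genes called given above. CASTOR2, a homologue of the arginine sensor CASTOR1, measured 8.50, 8.88 and 8.95 under DEGS1 siRNA, 7.98, 8.13 and 8.24 under SPTLC123 siRNA, and 7.38, 7.23 and 7.35 under scramble siRNA. The 3 groups did not overlap, and the scramble arrays lay close together. Its change was 1.46 ± 0.12 with DEGS1 siRNA (adjusted p = 7.95e-05), 0.79 ± 0.12 with SPTLC123 siRNA (adjusted p = 0.00237) and 0.66 ± 0.12 between the knockdowns (adjusted p = 0.00748). SESN3, of the sestrin family, rose by 0.61 ± 0.10 and 0.75 ± 0.10 with DEGS1 and SPTLC123 siRNA (adjusted p = 0.00437 and 0.00101), and RPTOR, the scaffold of mTORC1, by 0.60 and 0.64 (adjusted p = 0.0195 and 0.0129). RRAGD, a Rag GTPase, changed by -0.57 ± 0.13 with DEGS1 siRNA (adjusted p = 0.0207) and by -1.31 ± 0.13 with SPTLC123 siRNA (adjusted p = 0.000151), and RRAGA, another one, by -0.56 with SPTLC123 siRNA (adjusted p = 0.046). Within both knockdowns the weak 5′ arrays gave the highest CASTOR2 values. Without the weak 5′ arrays, which leaves 1 DEGS1 array, not all DEGS1 calls of this list were kept. CASTOR2 and RRAGD were not called between the knockdowns in that fit. With SPTLC123 siRNA 3 of the 18 were higher and 1 lower there, beside 823 higher and 679 lower of all 19775 genes.

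Of 15 measured mitochondrial tRNA synthetases, 1 rose with DEGS1 siRNA, SARS2 at 0.42 ± 0.10 (adjusted p = 0.0211). With SPTLC123 siRNA HARS2 rose by 0.44 (adjusted p = 0.0183) and VARS2 fell by 0.43 (adjusted p = 0.0223). EARS2 and LARS2 were lower with DEGS1 than with SPTLC123 siRNA, by -0.52 and -0.41 (adjusted p = 0.0115 and 0.0349). In the 3 comparisons 6.67%, 13.3% and 13.3% of the 15 were called, near the 9.7%, 9.94% and 8.66% of all genes. SARS2 and SARS1 thus had changes of opposite sign with DEGS1 siRNA, 0.42 and -0.96, a comparison chosen after the values were seen. Of 6 measured genes among the remaining cytosolic synthetases and their scaffold, 0 were called by limma in the 3 comparisons. At an unadjusted p under 0.05, 3 were lower with DEGS1 siRNA, 1 was higher with SPTLC123 siRNA, and 2 were lower between the knockdowns. Of all genes, 12.9% were lower with DEGS1 siRNA and 11.9% between the knockdowns at that threshold, and 2218 of 19775 were higher with SPTLC123 siRNA. Of 11 further serine, glycine and folate genes, SFXN1, a mitochondrial serine carrier, fell by 0.34 with DEGS1 siRNA (adjusted p = 0.0286). MTHFD2L, a paralogue of MTHFD2, fell by 0.68 with SPTLC123 siRNA (adjusted p = 0.00541). Each is 9.09% of the 11, beside 9.7% and 9.94% of all genes, and 0 of the 11 were called between the knockdowns. Without the weak 5′ arrays these lists gave 0 calls with DEGS1 siRNA, beside 1.31% of all genes.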
